A study of Mus musculus with 10 samples.

Results

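A set of 7 chemokine receptor genes was followed across microglia of 3 groups of mice. They are the conventional receptors Cxcr4, Cxcr2, Ccr2 and Ccr1 and the atypical receptors Ccrl2, Ackr3 and Ackr1, chosen by symbol, 7 of the 24421 symbols listed in the count files. The fractalkine receptor Cx3cr1 was not among them. Microglia were prepared from the cortex of 9-month-old mice, and every library was a pool of 2 mice. The WT group had 3 libraries and carried no transgene. The APP/PS1 group had 4 libraries from transgenic mice that overexpress human mutant APP and presenilin 1. The RNA sequencing text of the study describes the counterpart of N-AS as APP/PS1 mice treated with vehicle. The labels of these libraries give the genotype alone. The APP/PS1+N-AS group had 3 libraries from mice with the same transgenes injected subcutaneously each day with N-acetyl sphingosine (N-AS) at 30 mg/kg for 8 weeks, starting at 7 months of age. The cells were enriched on a density gradient after papain digestion, so other brain cells could remain.

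Chemokine receptors are proteins that cross the cell membrane several times and steer immune cells along gradients of chemokines. The conventional receptors couple to inhibitory G proteins and drive migration, whereas the atypical receptors bind a ligand without this coupling and remove it, transport it or present it to another receptor. In the brain, microglia use such receptors to sense neurons and damage, and Ccr2 and Cxcr2 are best known from monocytes and neutrophils that enter inflamed tissue.

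The libraries held 8805804 to 19432075 reads assigned to genes. All 14 microglial markers were detected, and their summed level was 618 to 906 CPM (the reads of a gene scaled to the size of its library) in WT, 1985 to 2581 CPM in APP/PS1 and 1209 to 1533 CPM in APP/PS1+N-AS. Transcripts of other brain cells were present too, with summed neuronal markers at 1422 to 4778 CPM and summed oligodendrocyte markers at 1450 to 5750 CPM over all libraries. In bulk RNA, fewer cells of a type and less RNA per cell cannot be told apart. WT replicate 1 stood apart. It was the shallowest library, and 1456 olfactory and vomeronasal receptor genes, which microglia are not known to use, summed to 5973 CPM there against 944 to 2661 CPM in the other 9 libraries. The libraries numbered 7 to 10 in their titles (WT replicate 3, APP/PS1 replicates 3 and 4 and APP/PS1+N-AS replicate 3) had sums of 2122 to 2661 CPM, above the 944 to 1352 CPM of libraries 2 to 6. Values within libraries 1 to 6 and within libraries 7 to 10 are therefore given where they matter. The study used male mice, but Xist was at 453 to 579 CPM in all 4 APP/PS1 libraries and in 2 of 3 APP/PS1+N-AS libraries at 463 and 469 CPM, against at most 4.398 CPM in WT and 2.14 CPM in APP/PS1+N-AS replicate 3. Summed Y-linked transcripts were at 177 to 197 CPM in WT and at 0.619 to 57.0 CPM in APP/PS1, with 30.97 to 176 CPM in APP/PS1+N-AS. Between APP/PS1 and WT the sex-linked reads and the genotype cannot be told apart, and the APP/PS1+N-AS group was mixed.

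Levels of different receptors were compared per kilobase of exon. Cxcr2 had the highest level per kilobase in every group, with 21.7 ± 12.8 CPM per kb in WT (SD, n = 3), 16.4 ± 3.69 in APP/PS1 (SD, n = 4) and 13.9 ± 2.28 in APP/PS1+N-AS (SD, n = 3). Its values overlapped those of Ackr3, the next receptor, in WT but not in APP/PS1+N-AS. Ccr1 and Ccr2 were the lowest in every group, at 0.163 to 0.479 CPM per kb, and their values overlapped each other in each group. The order in between changed. Cxcr4 ranked below Ccrl2 in WT at 1.32 ± 0.329 CPM per kb and just after Cxcr2 in APP/PS1 at 6.01 ± 2.13 CPM per kb, where it overlapped Ackr3 at 5.98 ± 1.34 CPM per kb. Under N-AS it was again below Ccrl2, at 3.03 ± 0.964 CPM per kb, with values overlapping those of Ccrl2 at 3.48 ± 0.744 CPM per kb.

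**Figure D1:**
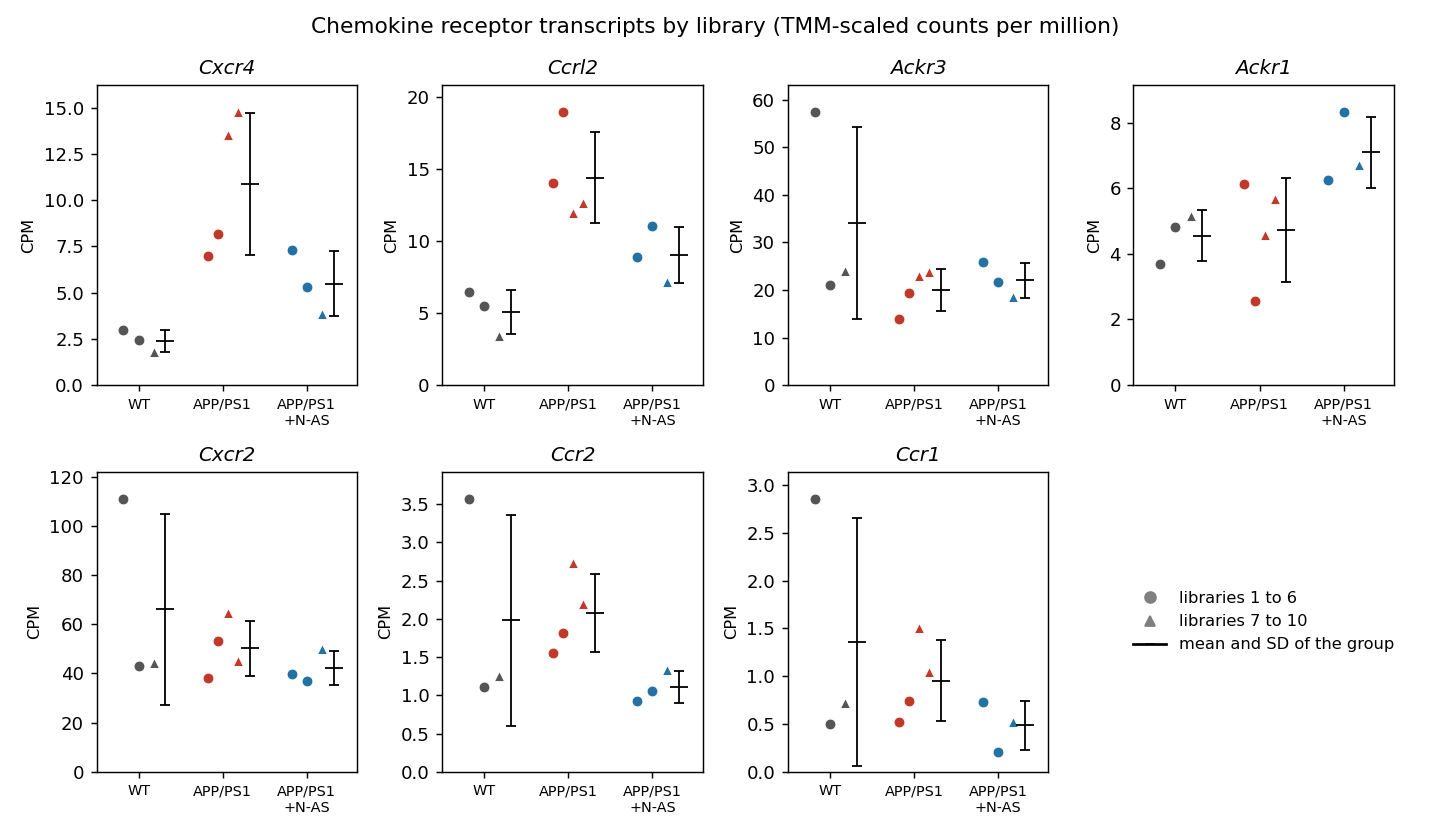
TMM-scaled CPM of each receptor (vertical axis, starting at 0) in every library of the 3 groups, with circles for libraries 1 to 6, triangles for libraries 7 to 10 and black bars for the group mean and SD. Every APP/PS1 point of Cxcr4 and Ccrl2 lies above every WT point, and a single WT library, replicate 1, lies far above the other points for Ackr3, Cxcr2, Ccr2 and Ccr1.

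Cxcr4 and Ccrl2 were the receptors whose transcripts rose in the APP/PS1 libraries relative to WT. The mean log2 CPM of 14 microglial markers was also higher, by 1.54, and relative to that mean the differences were 0.54 for Cxcr4 (exact permutation p = 0.286) and −0.047 for Ccrl2 (exact permutation p = 0.914). Of the 7 receptors, 2 were higher at an adjusted p under 0.05 and 0 were lower, while 2.67% of the 18727 genes tested were called higher. The same 2 of 7 had APP/PS1 libraries that all lay above all WT libraries, as did 8.15% of all genes tested. No receptor had APP/PS1 libraries wholly below WT, against 6.73% of all genes. The median log2 fold change of the 7 receptors was 0.047, and that of all genes tested was −0.074.

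Cxcr4 encodes the receptor of CXCL12 and guides the homing of leukocytes and the migration of neural cells. The gene lies on the minus strand at chr1:128588199-128592293 (GRCm38, GENCODE M21). Its level was 2.97, 2.41 and 1.78 CPM in WT replicates 1 to 3. In APP/PS1 replicates 1 to 4 it was 6.99, 8.18, 13.5 and 14.8 CPM. All 4 APP/PS1 libraries were above all WT libraries, and the pair from libraries 7 to 10 was the higher. The group means were 2.39 ± 0.594 CPM (SD, n = 3) and 10.9 ± 3.85 CPM (SD, n = 4), with 25 to 39 reads per WT library and 81 to 310 reads per APP/PS1 library behind them. The fitted log2 fold change was 2.22 (4.66-fold) with a standard error of 0.35 (edgeR quasi-likelihood test, Benjamini-Hochberg adjusted p = 0.00620). The difference of mean log2 CPM was 1.45 within libraries 1 to 6 and 2.90 within libraries 7 to 10, which hold a single WT library.

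Ccrl2 encodes an atypical receptor that binds chemerin, the product of Rarres2, and presents it to cells bearing the signalling receptor Cmklr1. It is transcribed from the minus strand at chr9:111054486-111057519 (GRCm38). Its level was 6.42, 5.45 and 3.42 CPM in WT replicates 1 to 3. The APP/PS1 libraries, in replicate order, had 13.98, 18.9, 11.96 and 12.6 CPM. The lowest APP/PS1 library was thus well above the highest WT library, and libraries 7 to 10 were here the lower ones of each group. The means were 5.10 ± 1.53 CPM (SD, n = 3) and 14.4 ± 3.15 CPM (SD, n = 4). The fitted log2 fold change was 1.52 (2.86-fold) with a standard error of 0.26 (edgeR, adjusted p = 0.0107). The difference of mean log2 CPM was 1.44 within libraries 1 to 6 and 1.80 within libraries 7 to 10.

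Leaving out any 1 of the 10 libraries kept both calls, with log2 fold changes of 2.04 to 2.38 for Cxcr4 and 1.29 to 1.70 for Ccrl2. Both calls were lost when the microglial marker level was a covariate (edgeR log2 fold change 1.59, adjusted p = 0.858 for Cxcr4 and 2.34, adjusted p = 0.855 for Ccrl2), a fit that called 0 genes in all. They were also lost with the Y-linked sum as a covariate (1.07, edgeR adjusted p = 0.999 and 1.27, adjusted p = 0.889), where 3 genes in all were called. Both covariates moved with the genotype.

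The sequences just before the starts of Cxcr4 and Ccrl2 are shown because these were the 2 receptors that rose. Each run is the 250 bases before the most upstream RefSeq start, 5′ to 3′ on the minus strand, at chr1:128592300-128592549 for Cxcr4 and chr9:111057519-111057768 for Ccrl2 (RefSeq, GRCm38.p6). Capitals mark matches, on either strand, to the GC box GGGCGG, the TATA box TATAAA or the kappaB-like pattern GGGNNNNNCC.
Cxcr4: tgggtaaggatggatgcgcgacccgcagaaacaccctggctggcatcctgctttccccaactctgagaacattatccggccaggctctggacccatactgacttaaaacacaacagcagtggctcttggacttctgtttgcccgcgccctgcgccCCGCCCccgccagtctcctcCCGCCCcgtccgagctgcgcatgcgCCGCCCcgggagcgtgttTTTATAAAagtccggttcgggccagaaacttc
Ccrl2: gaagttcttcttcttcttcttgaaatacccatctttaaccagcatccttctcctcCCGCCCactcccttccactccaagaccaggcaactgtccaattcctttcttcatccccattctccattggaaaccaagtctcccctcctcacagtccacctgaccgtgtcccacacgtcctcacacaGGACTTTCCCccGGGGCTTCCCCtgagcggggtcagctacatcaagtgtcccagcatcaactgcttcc
The Cxcr4 run held 3 GC boxes on the opposite strand, 95, 75 and 50 bases before the start, and TATA boxes on both strands that overlap, 32 and 30 bases before it. The Ccrl2 run held 1 GC box on the opposite strand, 195 bases before the start, and 5 matches to the kappaB-like pattern in 2 stretches, 1 match at 68 bases before the start and 4 that overlap each other at 56 and 55 bases before it. Neither run matched the AP-1 pattern TGANTCA or the PU.1-like pattern GAGGAAG. Some receptors that were not called held such matches too. The corresponding runs of Ccr1 and Cxcr2 each held 1 kappaB-like match, 74 and 26 bases before the start. That of Ackr3 held 1 GC box and 1 TATA box, 68 and 8 bases before it. Those of Ccr2 and Ackr1 held none of the patterns. Among 27025 promoter windows of the same length, 33% held the GC box, 13% the TATA box, 45.4% the kappaB-like pattern, 6.85% the AP-1 pattern and 10.4% the PU.1-like pattern. Such matches describe letters and not bound sites, and no promoter was measured here.

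**Figure D2:**
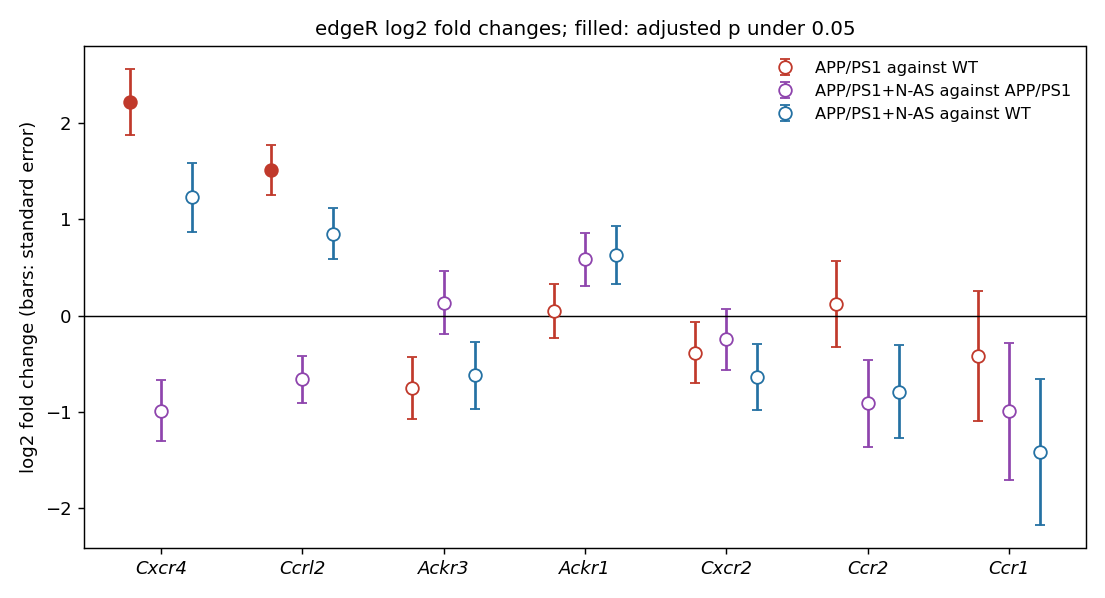
Log2 fold change (vertical axis, edgeR, bars for the standard error) of each receptor in the 3 comparisons, with filled points where the adjusted p is under 0.05. The filled points are Cxcr4 at 2.22 and Ccrl2 at 1.52 in APP/PS1 against WT, and both genes are negative in APP/PS1+N-AS against APP/PS1 without passing the threshold.

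APP/PS1+N-AS microglia were next compared with APP/PS1 microglia to ask whether N-AS injection changed receptor transcripts. None of the 7 receptors passed an adjusted p of 0.05, nor did any of the 18727 genes (0%), although edgeR gave 1653 genes an unadjusted p under 0.05 and DESeq2 called 79 genes, none of them a receptor of the 7. At the unadjusted threshold 2 of 7 receptors were lower, Cxcr4 and Ccrl2, against 4.05% of all genes. The median log2 fold change of the 7 receptors was −0.66, and that of all genes tested was −0.0089. The APP/PS1 libraries serve in both comparisons, so their 2 sets of differences are not independent.

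Cxcr4 was at 7.31, 5.30 and 3.84 CPM in APP/PS1+N-AS replicates 1 to 3. Replicate 1 lay above the lowest APP/PS1 library, so the groups overlapped. The mean was 5.49 ± 1.74 CPM (SD, n = 3), and the log2 fold change against APP/PS1 was −0.99 with a standard error of 0.32 (edgeR, adjusted p = 0.497). Within libraries 1 to 6 the difference of mean log2 CPM was −0.27, and within libraries 7 to 10 it was −1.84. Ccrl2 was at 8.89, 11.03 and 7.17 CPM in APP/PS1+N-AS replicates 1 to 3, all below the lowest APP/PS1 library. Its mean was 9.03 ± 1.93 CPM (SD, n = 3), with a log2 fold change of −0.66 and a standard error of 0.24 (edgeR, adjusted p = 0.517). The difference was −0.71 within libraries 1 to 6 and −0.77 within libraries 7 to 10. Libraries 7 to 10 hold a single APP/PS1+N-AS library, replicate 3, the one with Xist at 2.14 CPM. The APP/PS1+N-AS libraries were wholly below APP/PS1 for 2 of 7 receptors (Ccrl2 and Ccr2), against 6.46% of all genes, and wholly above for 1 of 7 (Ackr1), against 6.26%.

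Against WT, no receptor of APP/PS1+N-AS microglia passed the adjusted threshold, while 0.187% of all genes did. Cxcr4 and Ccrl2 were the 2 of 7 receptors higher at an unadjusted p under 0.05, against 3.64% of all genes. The log2 fold change of Cxcr4 was 1.23 with a standard error of 0.36 (edgeR, adjusted p = 0.392). That of Ccrl2 was 0.85 with a standard error of 0.27 (edgeR, adjusted p = 0.481). For 3 of 7 receptors (Cxcr4, Ccrl2 and Ackr1) all 3 APP/PS1+N-AS libraries lay above all 3 WT libraries, against 4.9% of all genes. Cxcr4 and Ccrl2 thus had their mean in APP/PS1+N-AS between those of WT and APP/PS1. The median log2 fold change of the 7 receptors was −0.62 here, and that of all genes was −0.038.

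Ackr3, also known as CXCR7, is an atypical receptor that takes up CXCL12 and CXCL11 and so shares a ligand with Cxcr4. It lies on the plus strand at chr1:90203980-90216751 (GRCm38). Ackr3 was at 57.4, 21.1 and 23.9 CPM in WT replicates 1 to 3. APP/PS1 replicates 1 to 4 had 13.9, 19.4, 23.0 and 23.8 CPM, and APP/PS1+N-AS replicates 1 to 3 had 26.0, 21.6 and 18.5 CPM. Apart from WT replicate 1, the 9 libraries shared a range of 13.9 to 26.0 CPM. The log2 fold change in APP/PS1 against WT was −0.75 with a standard error of 0.32 (edgeR, adjusted p = 0.262), which made Ackr3 the 1 of 7 receptors lower at the unadjusted threshold, against 8.9% of all genes. Without WT replicate 1 it was −0.17 (edgeR, adjusted p = 0.734). Under N-AS the log2 fold change was 0.13 ± 0.33 (SE) against APP/PS1 (edgeR, adjusted p = 0.935) and −0.62 ± 0.35 (SE) against WT (adjusted p = 0.785).

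Ackr1, the Duffy antigen receptor, binds many inflammatory chemokines on erythroid cells and on the endothelium of venules. It lies on the minus strand at chr1:173331886-173333750 (GRCm38). Ackr1 was at 3.68, 4.83 and 5.16 CPM in WT replicates 1 to 3. APP/PS1 replicates 1 to 4 had 6.13, 2.56, 4.58 and 5.67 CPM. The APP/PS1+N-AS libraries had 6.26, 8.32 and 6.72 CPM, above every library of both other groups, though only just above the highest APP/PS1 library. The log2 fold change was 0.58 ± 0.27 (SE) against APP/PS1 (edgeR, adjusted p = 0.581) and 0.63 ± 0.30 (SE) against WT (adjusted p = 0.744), so neither difference passed the threshold. Between APP/PS1 and WT it was 0.047 ± 0.28 (SE), with an adjusted p of 0.954 in edgeR. Of the Ackr1 exon bases, 361 (25.7%) also belong to exons of Cadm3, a neuronal adhesion gene on the same strand, at 64.6 to 165 CPM, so reads of the shared bases cannot be told apart. The groups overlapped for Cadm3, with 71.3 to 165 CPM in WT, 64.6 to 91.7 CPM in APP/PS1 and 76.8 to 109 CPM in APP/PS1+N-AS. Summed markers of erythroid cells (6 of 6 detected) were at 2567 to 3288, 2352 to 3255 and 1608 to 3381 CPM in WT, APP/PS1 and APP/PS1+N-AS. Those of venous endothelium (6 of 6 detected) were at 207 to 750, 570 to 703 and 453 to 727 CPM in the same order. Their part in the level of Ackr1 was not tested.

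Cxcr2, the receptor of the CXCL1 family that draws neutrophils into tissue and is also known from oligodendrocyte lineage cells, had the most reads of the 7 receptors. It lies on the plus strand at chr1:74153989-74161246 (GRCm38). Its level was 110.9, 43.0 and 44.1 CPM in WT replicates 1 to 3. In APP/PS1 replicates 1 to 4 it was 38.3, 53.0, 64.4 and 44.8 CPM. The APP/PS1+N-AS replicates had 39.7, 36.9 and 50.1 CPM, in replicate order, and the groups overlapped in every comparison. The log2 fold change was −0.39 ± 0.32 (SE) in APP/PS1 against WT (edgeR, adjusted p = 0.599), −0.25 ± 0.32 (SE) in APP/PS1+N-AS against APP/PS1 (adjusted p = 0.862) and −0.64 ± 0.34 (SE) in APP/PS1+N-AS against WT (adjusted p = 0.773). Without WT replicate 1 the first of these was 0.20 (edgeR, adjusted p = 0.658) and the last was −0.045 (adjusted p = 0.985), so the direction or size against WT rested on that library.

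Ngp and S100a9, granule and calcium-binding proteins of neutrophils, were at 2.61 and 3.68 CPM in WT replicate 1, where Cxcr2 was highest. Csf3r, a neutrophil marker that microglia also express, was at 41.4 CPM there and at 25.1 and 34.1 CPM in WT replicates 2 and 3. Ngp and S100a9 were at 31.7 and 38.1 CPM in APP/PS1 replicate 3, against at most 3.45 and 8.48 CPM in the other libraries. Cxcr2 was there at 64.4 CPM, the highest of the APP/PS1 libraries. The 7 neutrophil markers matched in the files, of 8 listed, summed to 33.8 to 53.0 CPM in WT, 71.4 to 194 CPM in APP/PS1 and 44.4 to 90.6 CPM in APP/PS1+N-AS. Csf3r alone was at 25.1 to 41.4, 62.5 to 95.8 and 37.5 to 72.1 CPM in the same order. The part of neutrophils in the level of Cxcr2 was not tested. Without APP/PS1 replicate 3, the edgeR log2 fold change against WT was 2.11 for Cxcr4 and 1.603 for Ccrl2, and their calls held.

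Ccr2, the CCL2 receptor that defines inflammatory monocytes, and Ccr1, a receptor of CCL3 and CCL5, were close to the floor of detection. Ccr2 lies at chr9:124101950-124113557 and Ccr1 at chr9:123962124-123968692 (GRCm38), in the same chemokine receptor cluster. Ccr2 was at 3.57, 1.11 and 1.25 CPM in WT, at 1.55, 1.82, 2.73 and 2.19 CPM in APP/PS1 and at 0.922, 1.06 and 1.33 CPM in APP/PS1+N-AS, in replicate order, with 14 to 46 reads per library. All APP/PS1+N-AS libraries were below all APP/PS1 libraries, by a log2 fold change of −0.91 ± 0.45 (SE) that did not pass the threshold (edgeR, adjusted p = 0.600). Against WT, Ccr2 had a log2 fold change of 0.12 ± 0.44 (SE) in APP/PS1 (edgeR, adjusted p = 0.924), and 0.81 without WT replicate 1 (adjusted p = 0.2998). Summed monocyte markers were at 547 to 961 CPM in WT, 890 to 914 CPM in APP/PS1 and 682 to 1047 CPM in APP/PS1+N-AS. Of these markers, Ly6c2 was at 3.28 to 11.8 CPM and Plac8 at 0 to 1.78 CPM over the 10 libraries, a small part of the sum.

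Ccr1 was at 2.85, 0.495 and 0.723 CPM in WT, at 0.518, 0.744, 1.503 and 1.05 CPM in APP/PS1 and at 0.725, 0.212 and 0.517 CPM in APP/PS1+N-AS, in replicate order. With 4 to 24 reads per library, none of its differences passed the threshold. The log2 fold changes were −0.42 ± 0.67 (SE), −0.99 ± 0.71 (SE) and −1.42 ± 0.76 (SE) in APP/PS1 against WT, APP/PS1+N-AS against APP/PS1 and APP/PS1+N-AS against WT (edgeR, adjusted p = 0.802, 0.720 and 0.773). The first became 0.64 without WT replicate 1 (edgeR, adjusted p = 0.632).

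Cxcr2, Ackr3, Ccr2 and Ccr1 had part of a pattern across libraries in common. Each was highest in WT replicate 1, the library where the olfactory and vomeronasal receptors summed to 5973 CPM and 1395 of their 1456 genes had reads. Among the APP/PS1 libraries, Ackr3, Ccr2 and Ccr1 were highest in replicates 3 and 4, at sums of 2661 and 2287 CPM. Cxcr2 was highest in replicate 3, but its 44.8 CPM in replicate 4 lay below the 53.0 CPM of replicate 2. In APP/PS1+N-AS, replicate 3 had the highest sum, 2122 CPM against 1258 and 1283 CPM. Cxcr2 and Ccr2 were highest of that group there, at 50.1 and 1.33 CPM. Ackr3 was lowest there at 18.5 CPM, and Ccr1 at 0.517 CPM lay below the 0.725 CPM of replicate 1. Within WT, Cxcr4 and Ccrl2 were also highest in replicate 1, at 2.97 and 6.42 CPM, but these values lay below those of every APP/PS1 library. Cxcr4 was likewise highest in replicates 3 and 4 among the APP/PS1 libraries. Whether the olfactory and vomeronasal reads and the reads of these 4 receptors have a common origin was not tested.

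**Figure D3:**
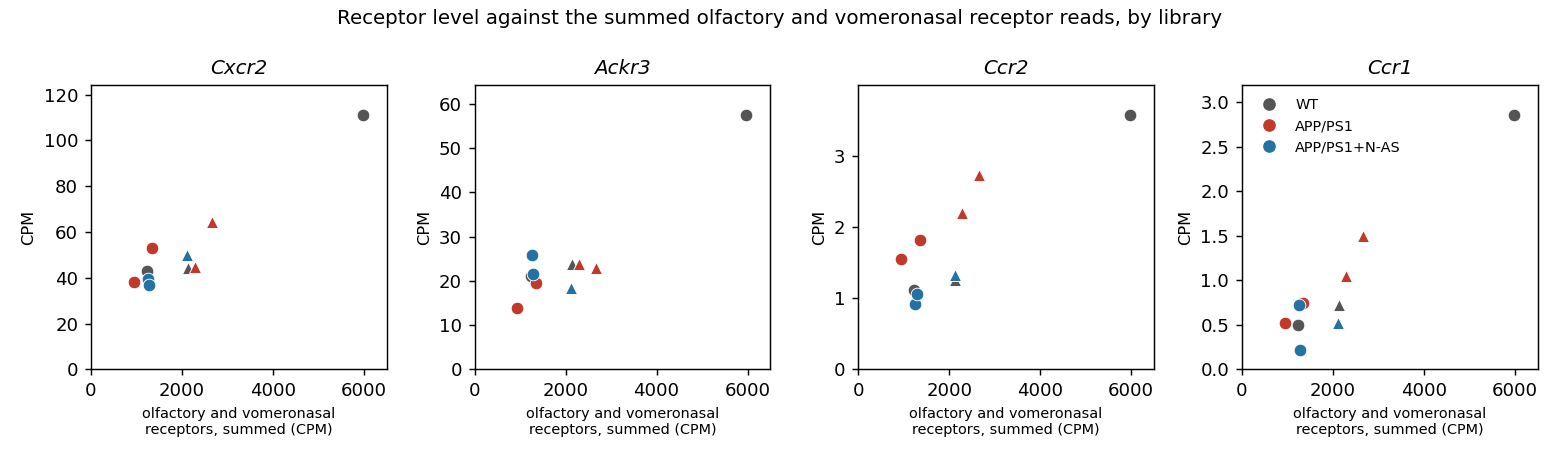
CPM of Cxcr2, Ackr3, Ccr2 and Ccr1 (vertical axes, starting at 0) against the summed CPM of 1456 olfactory and vomeronasal receptor genes in the same library (horizontal axis), with colours for the groups, circles for libraries 1 to 6 and triangles for libraries 7 to 10. WT replicate 1 sits alone at the upper right of each panel, at a sum of 5973 CPM. The sums were scaled to the total count of each library, without TMM factors.

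The level of each receptor was also set against the level of microglial transcripts, as the log2 CPM of the receptor minus the mean log2 CPM of the 14 microglial markers. That marker mean was itself 1.54 higher on the log2 scale in APP/PS1 than in WT, 0.62 lower in APP/PS1+N-AS than in APP/PS1, and 0.92 higher in APP/PS1+N-AS than in WT. Of the 14 markers, 10 rose in APP/PS1 against WT in edgeR and 0 fell. In all, 21 differences were put to exact permutation tests (two-sided), with unadjusted p-values of which the smallest possible is 0.0286 for 4 against 3 libraries and 0.1 for 3 against 3.

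Relative to these markers, Cxcr4 and Ccrl2 were not distinguishable between APP/PS1 and WT. The relative difference was 0.54 on the log2 scale for Cxcr4 (exact permutation p = 0.286) and −0.047 for Ccrl2 (exact permutation p = 0.914). A gene with equal CPM in both groups would differ by the 1.54 of the marker mean on this scale, and 83% of all genes tested had APP/PS1 libraries wholly below WT. So did the other 5 receptors, with differences of −2.19 for Ackr3, −1.81 for Cxcr2, −1.73 for Ccr1, −1.55 for Ackr1 and −1.32 for Ccr2, each at the smallest exact permutation p of 0.0286. Without WT replicate 1 the same differences were −1.63, −1.26, −0.95, −1.58 and −0.72. On the plain log2 scale they were −0.65, −0.27, −0.19, −0.0039 and 0.22 in the same order, with overlapping groups, and only Cxcr4 and Ccrl2 reached that p. In APP/PS1+N-AS against APP/PS1, the relative level of Ackr3 was higher by 0.77 (exact permutation p = 0.0286) and that of Ackr1 by 1.25 (exact permutation p = 0.0571), both without overlap, as were 56.8% of all genes. The marker mean was lower by 0.62 in this comparison, and the plain differences were 0.15 for Ackr3 (exact permutation p = 0.629) and 0.63 for Ackr1 (exact permutation p = 0.114). Those of Cxcr4 and Ccrl2 differed by −0.33 and −0.043 (exact permutation p = 0.343 and 0.8). Against WT, APP/PS1+N-AS libraries had relative differences of 0.21 for Cxcr4 (exact permutation p = 0.8) and −0.090 for Ccrl2 (exact permutation p = 0.9). Ccr1, Ccr2, Cxcr2 and Ackr3 were wholly below WT, as were 63.5% of all genes, by −1.95, −1.52, −1.43 and −1.42 (exact permutation p = 0.1 for each). Their plain differences were −1.02, −0.60, −0.51 and −0.49, with overlapping groups. Ackr1 had a relative difference of −0.29 (exact permutation p = 0.2).

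**Figure D4:**
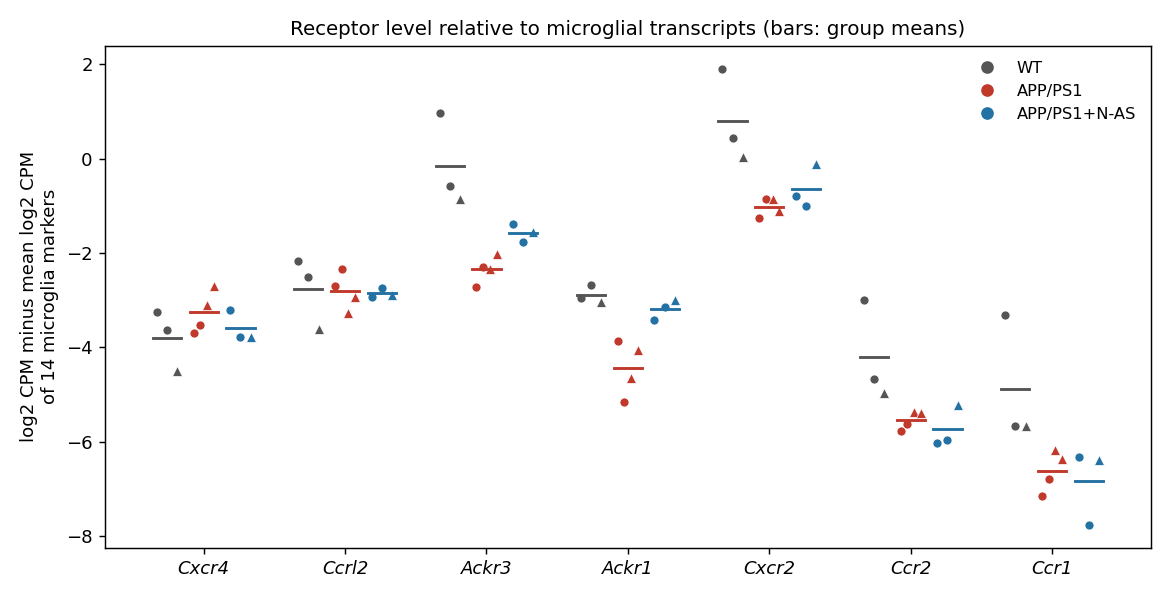
Log2 CPM of each receptor minus the mean log2 CPM of 14 microglial markers (vertical axis) in every library, with colours for the groups, circles for libraries 1 to 6, triangles for libraries 7 to 10 and bars for group means. Cxcr4 and Ccrl2 overlap between all groups, while the APP/PS1 points of Ackr3, Ackr1, Cxcr2, Ccr2 and Ccr1 lie below the WT points.

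Of the 17 ligand genes tested, 4 were higher in APP/PS1 than in WT at an adjusted p under 0.05 and 0 were lower, against 2.67% of all genes higher, with a list median of 0.65. Ccl6, a myeloid CC chemokine that binds Ccr1, was at 69.6 ± 8.56 CPM in APP/PS1 (SD, n = 4) and 4.50 ± 1.58 CPM in WT (SD, n = 3), a log2 fold change of 3.91. Ccl3 and Ccl4, inflammatory chemokines made by activated microglia, had log2 fold changes of 2.65 and 2.69. Ccl12, a Ccr2 ligand, was at 5.25 ± 0.438 and 2.53 ± 0.265 CPM in the same groups, with a log2 fold change of 1.04 (edgeR, adjusted p = 0.0195). The CXC chemokine Cxcl2, a Cxcr2 ligand, was at 5.52 ± 2.57 CPM in APP/PS1 (SD, n = 4) and 1.21 ± 0.881 CPM in WT (SD, n = 3), with every APP/PS1 library above WT, but its log2 fold change of 2.20 did not pass the threshold (edgeR, adjusted p = 0.107). Cxcl12, the ligand of Cxcr4 and Ackr3, had a log2 fold change of −0.055 (edgeR, adjusted p = 0.921), and Rarres2, whose product Ccrl2 binds, of 0.27 (adjusted p = 0.693).

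In APP/PS1+N-AS against APP/PS1 none of the 17 ligands passed the adjusted threshold, and 4 were lower and 0 higher at an unadjusted p under 0.05, where 4.05% of all genes were lower and 4.78% higher. Ccl6 had a mean of 27.9 ± 6.25 CPM (SD, n = 3) in APP/PS1+N-AS and a log2 fold change of −1.32 (edgeR, adjusted p = 0.405). Ccl4 had a log2 fold change of −0.88 and Ccl12 of −0.73, both at an adjusted p of 0.494 in edgeR. Against WT, Ccl3, Ccl4 and Ccl6 were higher in APP/PS1+N-AS, with log2 fold changes of 2.09, 1.82 and 2.59 (edgeR, adjusted p = 0.0415, 0.0256 and 0.00593), and Ccl12 was not called at 0.31 (adjusted p = 0.847). Over all genes 0.187% were called in that comparison.

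Genes that carry or end the receptor signal gave 9 higher and 0 lower of 31 tested in APP/PS1 against WT, against 2.67% of all genes higher. Microglial markers were higher in the same comparison, 10 of 14 called and with summed levels of 1985 to 2581 CPM against 618 to 906 CPM, and their part in these values was not tested. The 9 signalling genes called included the G protein-activated lipid kinase Pik3cg (log2 fold change 1.21) and phospholipase Plcb2 (1.29). They also included the migration regulators Dock2 (1.57), Rac2 (1.05) and Vav1 (1.34), and Rgs1 (2.75), Rgs2 (1.33) and Rgs10 (1.77), which speed the shut-off of G proteins. The list median was 0.35. Under N-AS, 0 of 31 passed against APP/PS1, with 8 lower and 1 higher at an unadjusted p under 0.05, against 4.05% and 4.78% of all genes. Rac2 at −0.83 and Vav1 at −0.53 had the lowest p-values (edgeR, adjusted p = 0.494 for both). Compared with WT, 0 of 31 passed, with 11 higher and 0 lower at the unadjusted threshold, against 3.64% of all genes higher, and Rgs1 came nearest at 1.95 (edgeR, adjusted p = 0.0803).

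Among 18 other chemokine receptors 13 were tested, and Cx3cr1 alone was called in APP/PS1 against WT, where 2.67% of all genes were called higher. Cx3cr1, which senses neuronal fractalkine, was at 249 ± 20.5 CPM in APP/PS1 (SD, n = 4) and 133 ± 13.7 CPM in WT (SD, n = 3), a log2 fold change of 0.90 (edgeR, adjusted p = 0.00685). That was a smaller log2 fold change than for Cxcr4 and Ccrl2, a difference between genes that was not tested. Ackr2, a scavenger of inflammatory CC chemokines, had a log2 fold change of −1.14 (edgeR, adjusted p = 0.191). Under N-AS, compared with APP/PS1, 0 of 13 passed and 3 were lower at an unadjusted p under 0.05, against 4.05% of all genes, with Cx3cr1 at −0.43 (edgeR, adjusted p = 0.498) and Cxcr5 at −1.47 (adjusted p = 0.517). Compared with WT, 0 of 13 passed, with Cx3cr1 at 0.47 and Ackr2 at −1.40 (edgeR, adjusted p = 0.484 and 0.520). Median log2 fold changes of these receptors were −0.029, −0.26 and −0.21 in the 3 comparisons.

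**Figure D5:**
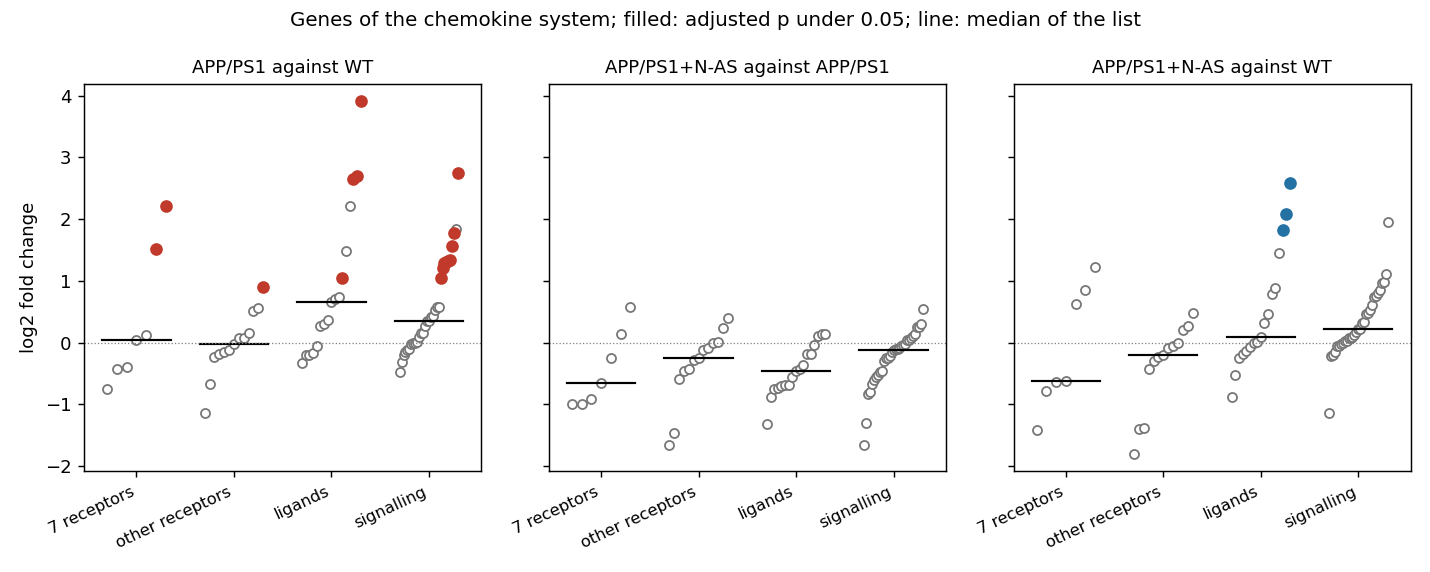
Log2 fold change (vertical axis, edgeR) of each tested gene among the 7 receptors, 13 other chemokine receptors, 17 ligands and 31 signalling genes in the 3 comparisons, sorted within each list, with filled points for an adjusted p under 0.05 and lines for list medians. Filled points appear in every list in APP/PS1 against WT, in none in APP/PS1+N-AS against APP/PS1, and in the ligands alone (3 genes) in APP/PS1+N-AS against WT.

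The genes most like each receptor across the 10 libraries were listed by Pearson correlation of log2 CPM over 17194 genes, as a description. The libraries share group, depth and cell content, so high values are common. For Cxcr4 they were Cybb, a subunit of the phagocyte oxidase (r = 0.983), Rpl12 (0.981) and Ptpn18 (0.980). For Ccrl2 they were B4galt1 (0.971) and the NF-kappaB subunit Nfkb2 (0.970). Cxcr2 was most like En2 (0.976), Ptprh (0.972) and Tigd5 (0.964), and Ackr3 most like Zc3h12d (0.973), Gm10825 (0.958) and Pkd1l3 (0.952). Ccr1 was nearest to Zan (0.953), Prom2 (0.949) and Dsg1a (0.943), and Ccr2 to Prom2 (0.944), 9930014A18Rik (0.943) and C230072F16Rik (0.939). Ackr1 had the loosest neighbours, 1700123O20Rik (0.920), Stx8 (0.880) and Vps51 (0.859). Among the receptors themselves, Cxcr4 and Ccrl2 correlated at r = 0.848, and Ccr1, Ccr2 and Cxcr2 at r = 0.846 to 0.874 with each other, over the same 10 libraries.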

How the data were processed

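Microglial RNA of 10 libraries, each from 2 mice, was depleted of ribosomal RNA, made into stranded libraries and sequenced in pairs. The authors aligned the reads to mm10 with TopHat, per the labels, and deposited raw counts per gene. The annotation, the tool versions and the strand setting of the counting are not given in the sources used here. The 103 lines that share a symbol among 24481 lines were summed to 24421 symbols.

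Genes were filtered with filterByExpr and tested with the edgeR 4.0.16 quasi-likelihood test in R 4.3.3 (TMM scaling, 1 model of 3 groups, 18727 genes, common dispersion 0.0752). P-values were adjusted over all genes by the Benjamini-Hochberg method, with a threshold of 0.05. CPM used TMM factors, and log2 CPM a prior count of 2. The olfactory and vomeronasal sums were instead scaled to the total count of each library, without TMM factors. Exact permutation tests used SciPy 1.17.1. The fit was tested on simulated data. Alternatives included DESeq2 1.42.0, limma 3.58.1 with voom, other scalings and filters, covariates, each library left out and, added after the values were seen, a covariate of olfactory and vomeronasal receptor reads. Positions and exon lengths come from GENCODE M21 (GRCm38), the same build as mm10.

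Replicate numbers come from the labels, which do not say what a shared number means. After group means were removed, same-numbered libraries correlated at 0.278, 0.142 and 0.309 between APP/PS1+N-AS and APP/PS1. Between APP/PS1 and WT they correlated at −0.485, 0.441 and −0.0096. No comparison was treated as paired in the main fit. A replicate block was fitted as an alternative for every comparison, and it changed no call in APP/PS1+N-AS against APP/PS1. The members and gene lists were chosen with earlier results of these data known. From the lists, genes with an adjusted p under 0.05 in any comparison and the 2 with the lowest p in each were named, except that some genes under these rules are not reported here singly. Cadm3, Cxcl2, Cxcl12, Csf3r, Rarres2, Ngp, S100a9, Ccr4, Vwf, Lrg1, Ly6c2, Plac8 and Cd3d were named after their values were seen. P-values measure the spread between pools of mice, and PCR reads carried no molecular identifiers, so reads are not independent molecules.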

Additional observations from a re-analysis of the deposited data

How the results depend on the processing

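In APP/PS1 against WT, 2 of 7 receptors were called under every alternative other than 2 covariates, against 649 of 18727 genes in the main fit. At an unadjusted p under 0.05, 3 of 7 passed, against 3221 of 18727 genes. With the microglial marker level as a covariate 0 were called, and with the Y-linked sum as a covariate 0 were called; both covariates follow the genotype, and the cause was not tested. Leaving out each library gave 2 to 2 called receptors, and 0 to 0 in both N-AS comparisons. At that unadjusted threshold 2 of 7 receptors passed in APP/PS1+N-AS against APP/PS1, against 1653 of 18727 genes. In APP/PS1+N-AS against WT 2 of 7 passed, against 1261 of 18727 genes. Relative to the markers 5 receptors differed without overlap between APP/PS1 and WT (as did 83% of all genes, wholly lower), and 2 did when the marker mean was not subtracted. Fitted log2 fold changes turned sign only for receptors that were not called. In APP/PS1 against WT, Ccr1 (−0.42) became 0.063 with voom, 1.13 with the marker covariate and 0.38 with the olfactory and vomeronasal covariate, and ranged from −0.83 to 0.64 over the fits without 1 library. Cxcr2 (−0.39) became 0.90 and 0.039 with the same 2 covariates and ranged from −0.62 to 0.20. Ccr2 (0.12) ranged from −0.16 to 0.81. Ackr1 (0.047) became −0.073 with the replicate block, −0.48, −0.17 and −0.0097 with the marker, Y-linked and olfactory covariates, and ranged from −0.094 to 0.25. Ackr3 in APP/PS1+N-AS against APP/PS1 (0.13) became −0.099 with the marker covariate and ranged from −0.00020 to 0.26, the lowest without APP/PS1 replicate 1. Cxcr2 in APP/PS1+N-AS against WT (−0.64) became 0.13 with the marker covariate. Without subtraction of the marker mean the difference was 0.22 for Ccr2 and 1.49 for Ccrl2 in APP/PS1 against WT, −0.23 for Cxcr2 in APP/PS1+N-AS against APP/PS1, and 0.83 for Ccrl2 and 0.63 for Ackr1 in APP/PS1+N-AS against WT. With the replicate block, Cxcr4 and Ccrl2 stayed called in APP/PS1 against WT at log2 fold changes of 2.05 and 1.58 (edgeR, adjusted p = 0.0411 and 0.00935), and no call of the 7 receptors changed in any comparison. The block lowered the calls over all genes from 649 to 326 in APP/PS1 against WT. Counts over all genes also moved with DESeq2, to 1345 in APP/PS1 against WT, 79 (from 0) in APP/PS1+N-AS against APP/PS1 and 188 (from 35) in APP/PS1+N-AS against WT. Depth limits Ccr1 and Ccr2 most, at 4 to 46 reads per library.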

Other observations

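Ccr4, a receptor known from T cells, had reads out of proportion to the other chemokine receptors, at 91.0 to 784 CPM over the 10 libraries. T and NK cell markers summed to 47.6 to 160 CPM, and 1 of them, Cd3d, was alone at 35.1 to 144 CPM. Ccr4 was at 434 and 473 CPM in WT replicates 2 and 1 and at 91.0 CPM in WT replicate 3. In APP/PS1 it was at 784 and 639 CPM in replicates 1 and 2 and at 313 and 224 CPM in replicates 3 and 4. The APP/PS1+N-AS libraries had 524, 392.4 and 289 CPM. In each group the libraries numbered 7 to 10 were thus the lowest, and the groups overlapped. Csf3r, a neutrophil marker that microglia also express, was at 25.1 to 41.4 CPM in WT, 62.5 to 95.8 CPM in APP/PS1 and 37.5 to 72.1 CPM in APP/PS1+N-AS.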
